A study of Mus musculus with 24 samples.

Results

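The comparison described here set the knock-in embryonic stem cell line with the longest targeted huntingtin allele, Q111, against the line with the shortest, Q20. It rests on 6 of the series' 24 arrays, 3 titled Q111 and 3 titled Q20, and on the probe sets whose log2 expression value reached 5 on 3 or more of the 24 arrays. The series profiled total RNA of undifferentiated mouse embryonic stem cells of strain 129/Sv on 1-colour Affymetrix MG 430 2.0 arrays. It holds 6 control arrays, 6 arrays of cells without huntingtin, and 12 arrays of knock-in cells, 3 for each of the lines Q20, Q50, Q91, Q111. Q20 cells carry 1 allele with 7 CAG repeats and 1 targeted allele with 16, and Q111 cells carry alleles of 7 and 111 repeats. Q50 cells have alleles of 7 and 45 repeats, except replicate 3 with 7 and 43, and Q91 cells have 7 and 85. The control cells have 7 repeats on both alleles. Each allele length is represented by a single line, so repeat length and any other difference between the lines cannot be told apart. The titles call the arrays of a line biological replicates, and the labels do not say whether these are separate clones or parallel cultures, so the p-values measure the spread between these arrays. A free-text label field calls the control arrays cells without huntingtin and the knock-out arrays the reverse, against their titles and genotypes, so control values serve here only as a background.

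Huntingtin, encoded by Htt (also called Hdh), is a large scaffold protein that takes part in vesicle transport, transcription and early development. A CAG repeat in its first exon encodes a polyglutamine tract, and expansion of that tract causes Huntington's disease. In knock-in cells the longer repeat sits in the mouse's own gene, so the mutant protein is made at the natural locus beside a normal allele. Embryonic stem cells are held in a pluripotent state by factors such as Oct4, Sox2 and Nanog, and move through a primed, epiblast-like state before they differentiate.

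All 6 arrays carried the markers of embryonic stem cells. Pou5f1, the gene of Oct4, had a mean of 14.47 in Q20 and 14.54 in Q111 (log2), and 7 of 7 stem cell markers stood at 5 or more in both lines. Of 8 markers of feeder fibroblasts, 1 reached a mean of 5 in Q20 and 3 in Q111, and Dcn, Lum and Postn, which define fibroblasts, lay between 2.19 and 2.91 in the means of both lines. The collagen gene Col1a1, another fibroblast marker, reached 5 in both lines, at 7.98 in Q20 and 8.40 in Q111 beside 3.73 in control. Col1a2 had means of 3.65 in Q20, 5.08 in Q111 and 2.68 in control, and Thy1 of 4.66, 5.34 and 5.97. The summed level of the 8 fibroblast markers ran from 28.3 to 31.5 in the Q20 arrays and from 30.6 to 33.3 in the Q111 arrays, ranges that overlap. Between 37.4% and 38.0% of probe sets stood at 5 or more on each of the 6 arrays. Over the tested probe sets, array pairs correlated at 0.972 to 0.990 within Q20, 0.975 to 0.993 within Q111 and 0.969 to 0.990 between the lines.

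Huntingtin itself was measured by 3 probe sets, and none passed the test between the lines. On the brightest, Q20 arrays gave 7.69, 7.25 and 7.68 and Q111 arrays 7.39, 6.84 and 7.42, so the lines overlapped. The difference was -0.32 ± 0.22 (Q111 minus Q20 on the log2 scale, standard error, limma adjusted p = 0.986; exact permutation test p = 0.3). On the second, the Q20 arrays (6.43, 6.20 and 6.69) all lay above the Q111 arrays (5.80, 6.06 and 5.50), with a difference of -0.65 and a limma adjusted p of 0.321. The third gave -0.56 with a limma adjusted p of 0.182, and its Q111 mean of 4.98 was under the level of 5. Both of these probe sets gave an exact permutation p of 0.1, two-sided, the smallest that 3 arrays against 3 allow. Means on the brightest probe set were 8.01 in control and 7.21 in knock-out arrays, on the second 6.39 and 6.66, and on the third 5.83 and 5.52. The knock-out means thus stood above 5 on all 3 probe sets, so these values are uncertain as a measure of intact huntingtin transcript. Where these probe sets lie relative to the targeted part of the gene was not analysed here.

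The lines with the longest and shortest alleles differed in few transcripts. Of 17980 probe sets tested, 54 passed the threshold (limma, Benjamini-Hochberg adjusted p under 0.05, 0.300% of those tested), 24 higher and 30 lower in Q111, and 32 of the 54 differed by at least 2-fold. Among them were the transcription factor gene Epas1, the predicted gene Gm6958 and the RNA-processing gene Pop4, all lower in Q111, and the tau gene Mapt and the pseudouridine synthase gene Trub1, both higher. With each gene represented by its brightest probe set, 26 of 9511 genes passed (0.273%), 13 in each direction. An unadjusted p under 0.05 was reached by 1063 probe sets (5.91%). Across all tested probe sets the median absolute difference was 0.13 and the median half-width of its 95% interval was 0.41, so a typical difference under that size was not resolved. All 54 passing probe sets had 3 Q111 arrays beyond the 3 Q20 arrays, as had 12.4% of all tested.

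The number of calls differed between fits. A fit of the 6 arrays alone called 8 probe sets and a fit of the 12 knock-in arrays called 8, with 7 and 8 of them among the 54, while weighting arrays by their estimated quality called 256. Gm6958 and 1 probe set of Prune2 were past the threshold under every alternative that tested them. Replicate numbers paired arrays of the lines, and with the number as a block in the 6-array fit 4 probe sets remained, those of Gm6958, Prune2 and Mapt. Without the block, Mapt did not pass in the 6 arrays (limma adjusted p = 0.267) or in the 12 knock-in arrays (limma adjusted p = 0.476).

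**Figure D1:**
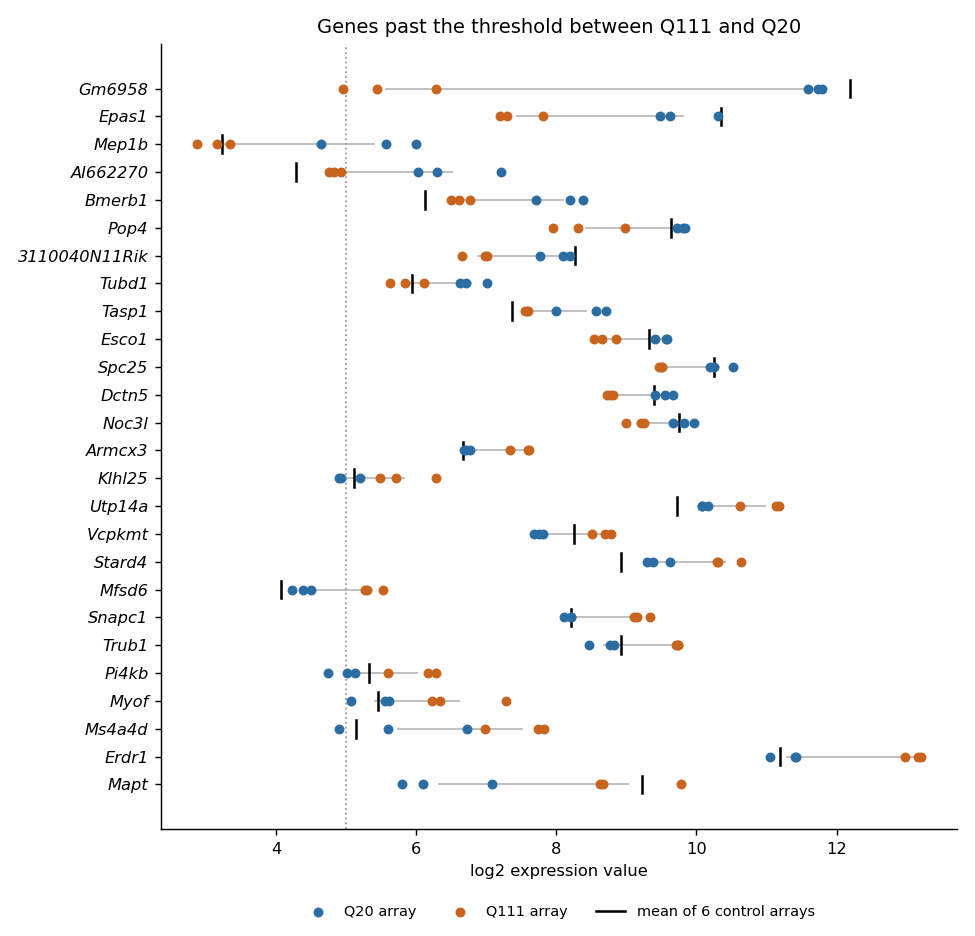
Log2 expression value (horizontal axis) of the 26 genes past the threshold by their brightest probe set (vertical axis), ordered by the difference between the lines. Blue points are the 3 Q20 arrays, orange points the 3 Q111 arrays, grey lines join the line means, black ticks mark the mean of 6 control arrays, and the dotted line is the level of 5. In every row the 3 Q111 arrays lie apart from the 3 Q20 arrays, from Gm6958 (means of 11.70 and 5.56) to Mapt (6.33 and 9.03).

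Gm6958, a predicted gene, had the largest fall. Its brighter probe set stood at 11.73, 11.59 and 11.79 in the Q20 arrays and at 4.95, 5.45 and 6.29 in the Q111 arrays. No array of 1 line came near those of the other, and the fall was 6.14 on the log2 scale, 70.6-fold (SE 0.31, limma adjusted p = 1.2e-10). Its second probe set, whose name marks probes that may bind related sequences, fell by 3.87. The 6 control arrays ran from 11.23 to 12.59, near the Q20 arrays, and the lowest of them stood apart from the other 5.

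Epas1 encodes HIF-2alpha, an oxygen-regulated transcription factor. The Q20 arrays gave 9.62, 9.48 and 10.30 and the Q111 arrays 7.81, 7.19 and 7.30. All Q111 arrays were thus below all Q20 arrays, by 2.37 in the mean (5.17-fold lower, SE 0.33, limma adjusted p = 0.000716). A second, dimmer probe set fell by 2.37 as well, with an adjusted p of 0.027 that became 0.121 with the replicate block. Control arrays lay between 9.87 and 10.79. No gene of the list of hypoxia-response genes, many of them targets of the HIF factors, passed the test, where 0.273% of all genes did. Of this list 16 genes were measured, with a median difference of 0.26. P4ha1, a collagen prolyl hydroxylase, had the smallest p (0.43 ± 0.23, limma adjusted p = 0.934).

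Pop4 encodes a protein subunit of RNase P and RNase MRP, which cut precursor tRNA and rRNA. Its single probe set stood at 9.81, 9.73 and 9.84 in Q20 and at 8.32, 7.96 and 8.98 in Q111. The Q111 arrays were all lower but spread more widely (SD 0.52 against 0.055, n = 3 each), and the fall was 1.37 (SE 0.19, limma adjusted p = 0.000632). Uri1, a prefoldin-like chaperone gene, lies near Pop4 on chromosome 7 and had 1 probe set that fell by 1.23 (adjusted p = 0.000131), but its brighter probe sets gave -0.29 and -0.21 and did not pass. Ccne1, which encodes cyclin E1, lies between them with -0.57 (adjusted p = 0.615), and the other tested genes between them, 1600014C10Rik and Plekhf1, gave 0.41 and -0.13. Ccne1 and Uri1 are named here for their position, after values were seen.

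Spc25, Dctn5, Esco1, Tubd1 and Noc3l showed smaller falls. Spc25, a component of the Ndc80 kinetochore complex, gave 10.52, 10.25 and 10.20 in Q20 and 9.49, 9.47 and 9.51 in Q111, a fall of 0.83 (SE 0.12, limma adjusted p = 0.000809). Dctn5, a subunit of dynactin, the cofactor of the dynein motor, gave 9.67, 9.41 and 9.55 against 8.80, 8.76 and 8.73, a fall of 0.78 (SE 0.10, adjusted p = 0.000318). In both genes the Q111 arrays sat within a narrow band beneath every Q20 array. The second Dctn5 probe set differed by -0.69 and did not pass (adjusted p = 0.237). Esco1, an acetyltransferase of cohesin, fell by 0.84 (adjusted p = 0.0107), and Tubd1, the delta-tubulin gene, by 0.92 (adjusted p = 0.019). Esco1's second probe set gave -0.05. Noc3l, a factor of ribosome assembly and replication licensing, fell by 0.67 (adjusted p = 0.00363), from 9.83, 9.96 and 9.67 to 8.99, 9.21 and 9.25. The other Noc3l probe set, nearly as bright, gave -0.23 and did not pass (adjusted p = 0.999).

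For several genes that were lower in Q111, it was Q20 rather than Q111 that stood away from control. Bmerb1 gave 8.38, 7.70 and 8.20 in Q20 and 6.76, 6.50 and 6.61 in Q111, while control arrays ran from 5.42 to 6.57. It fell by 1.47 (SE 0.27, limma adjusted p = 0.0141), a call lost with the replicate block (adjusted p = 0.0815). Mep1b, which encodes the beta subunit of the metalloprotease meprin, fell by 2.28 to a Q111 mean of 3.12, below the level of 5 and beside a control mean of 3.23. With the Q111 mean set at 5, the fall was at least 0.40. Tasp1, the threonine protease that cleaves MLL, fell by 0.84, with a Q20 mean of 8.42, a Q111 mean of 7.58 and a control mean of 7.36. A dimmer Tasp1 probe set gave -0.23 and did not pass (limma adjusted p = 0.999). The expressed-sequence gene AI662270 fell by 1.68 to a Q111 mean of 4.84, at least 1.51 from the level of 5, and Tubd1 also had a Q20 mean, 6.78, above its control mean of 5.94. The calls of Tubd1, Tasp1 and AI662270 were lost with the replicate block, at adjusted p = 0.0896, 0.12 and 0.0591. The RIKEN gene 3110040N11Rik fell by 1.14, from 8.20, 8.09 and 7.77 to 6.99, 7.01 and 6.65, and here the control mean of 8.27 was near Q20.

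Mapt, the gene of the microtubule-associated protein tau, had the largest rise. The Q20 arrays gave 5.79, 6.10 and 7.09 and the Q111 arrays 8.63, 8.67 and 9.78. The lines did not overlap, and the difference was 2.70 (6.51-fold, SE 0.50, limma adjusted p = 0.0137). The call rests on 1 probe set. The other Mapt probe sets were too dim to be tested, with line means from 2.01 to 3.12, and gave 0.003, 0.32 and 0.87. The 6 control arrays lay between 8.48 and 9.66, around the Q111 arrays and above all Q20 arrays. Without Q20 replicate 1, Q20 replicate 2 or Q111 replicate 3 the adjusted p was 0.104, 0.0741 or 0.0972.

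Trub1, Snapc1 and Utp14a were higher in Q111. Trub1, which makes pseudouridine in tRNA and mRNA, gave 8.83, 8.77 and 8.47 in Q20 and 9.74, 9.73 and 9.71 in Q111, a rise of 1.04 (SE 0.13, limma adjusted p = 0.000239). Snapc1, a subunit of the complex that starts transcription of small nuclear RNA genes, gave 8.21, 8.11 and 8.22 against 9.34, 9.16 and 9.11, a rise of 1.02 (SE 0.16, adjusted p = 0.00205). In both genes every Q111 array exceeded every Q20 and every control array. Utp14a, a factor of small ribosomal subunit assembly, was higher by 0.87 and by 1.18 on its 2 probe sets. The dimmer of them lost its call with the replicate block (adjusted p = 0.0983).

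Erdr1, erythroid differentiation regulator 1, rose from 11.40, 11.43 and 11.05 in Q20 to 13.21, 13.16 and 12.98 in Q111, a 3.54-fold difference (1.82, SE 0.22, limma adjusted p = 0.000131). Its probe set may bind related sequences, so the value is uncertain as a measure of Erdr1 alone. Vcpkmt, which methylates the ATPase VCP, rose by 0.91 (adjusted p = 0.00573). Its Q20 arrays gave 7.76, 7.81 and 7.68, its Q111 arrays 8.51, 8.70 and 8.78, and its control mean of 8.25 lay between. Ms4a4d, a gene of the membrane-spanning 4A family, was higher by 1.77, with Q20 arrays as far apart as 4.90 and 6.73. Myof, which encodes the membrane protein myoferlin, was higher by 1.20 (adjusted p = 0.0231, or 0.105 with the replicate block). Pi4kb, a phosphatidylinositol 4-kinase gene, was higher by 1.05 from a Q20 mean of 4.97 and Mfsd6, of the major facilitator superfamily, by 1.00. Mfsd6 had a Q20 mean of 4.37, also below the level of 5, so that its rise from that level was at least 0.37, and lost its call with the replicate block (adjusted p = 0.0521).

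**Figure D2:**
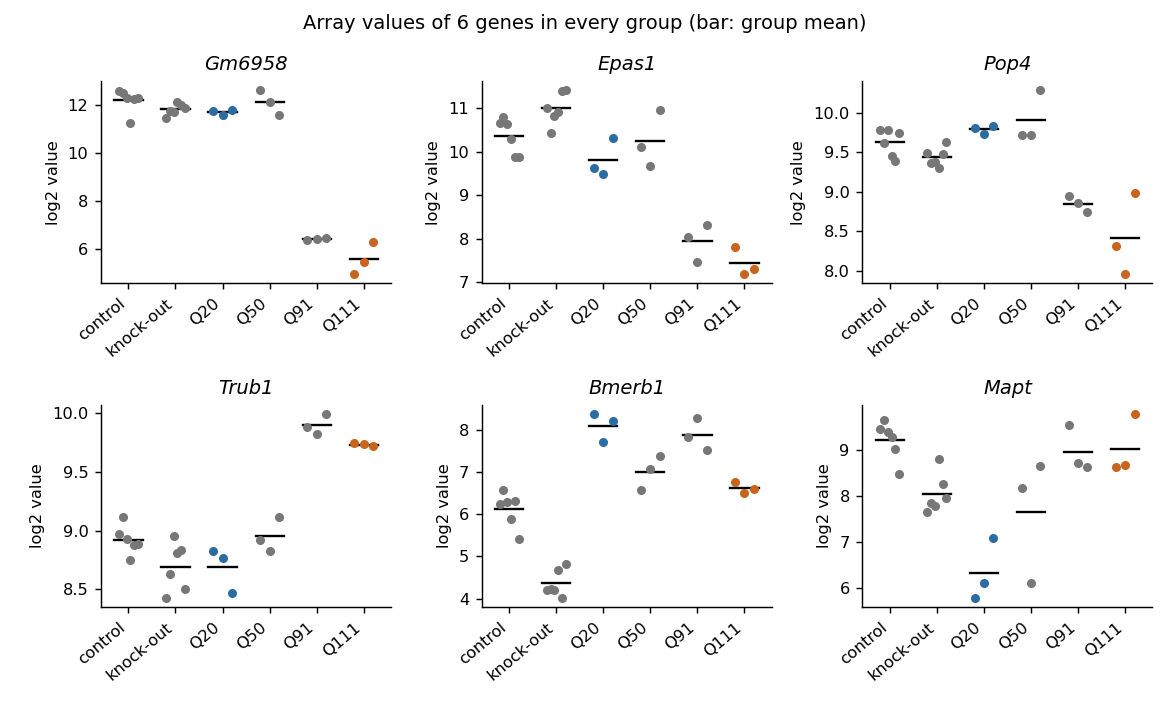
Log2 value (vertical axes) of 6 genes on every array of the 6 groups (horizontal axes), with Q20 in blue, Q111 in orange, other groups in grey and bars at group means. Gm6958, Epas1, Pop4 and Trub1 place Q91 near Q111 and the other groups near Q20, Bmerb1 places Q91 (mean 7.88) near Q20, and Mapt is lowest in Q20 (mean 6.33).

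Some calls rested on 1 of several probe sets of a gene and are named here after their values were seen. Of the 54 probe sets, 43 belonged to 1 named gene each (40 genes), 3 to several genes and 8 were unnamed here. For 14 genes a brighter probe set of the same gene did not pass. Prune2 had 1 probe set that fell by 4.66, while its brighter probe set gave 0.14. The Q111 mean of the first was 3.66, below the level of 5, and with that mean set at 5 it was at least 3.32 lower. Riok3, an atypical kinase, had a probe set that fell by 3.46, while its brightest gave 0.16. Nup62, a nuclear pore protein gene, had a dim probe set that fell by 2.35, while its brightest gave 0.14. Its Q111 mean of 3.09 was also below that level, and from 5 the fall was at least 0.44. Kif5b, the heavy chain of kinesin-1, had 1 probe set at -0.77, and its brightest gave 0.10. Phgdh, the first enzyme of serine synthesis, had 1 probe set at -0.71 and a brighter one at 0.10. Uqcr10, a subunit of respiratory complex III, had a probe set that rose by 1.69 while its brightest gave -0.15. Over the 22 called genes with another tested probe set, 35 of 41 other probe sets did not pass, and 26 of those 35 lay within 0.3 of no difference. Such values describe single probe sets and not the whole transcript output of a gene. Of the 43 named probe sets, 13 lost their call with the replicate block in the fit of 24 arrays, among them Nup62 (adjusted p = 0.0523), Cltb (0.0523), Kif5b (0.0616), Nosip (0.107) and Strada (0.157).

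Each of the 6 arrays mattered to some of these calls. Leaving out 1 array at a time, 17 of the 43 named probe sets stayed past the threshold in all 6 fits: those of Gm6958 (2), Prune2, Riok3, the brighter of Epas1, and those of Pop4, Uri1, Spc25, Dctn5, Noc3l, Phgdh, Erdr1, Trub1, Snapc1, Vcpkmt, Armcx3 and Neurl1a. The other 26 lost the call in at least 1 fit. Without Q20 replicate 1, 21 did not pass (limma adjusted p from 0.0553 to 0.23), without Q20 replicate 2, 12 (0.0611 to 0.309), and without Q20 replicate 3, 20 (0.0552 to 0.2). Without Q111 replicate 1, 18 did not pass (0.0508 to 0.21), without replicate 2, 21 (0.0501 to 0.261), and without replicate 3, 12 (0.0539 to 0.257). The total of calls was 30 without Q20 replicate 1, 33 without Q111 replicate 1 and 32 without Q111 replicate 2, against 54. No difference changed direction.

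The same 54 probe sets were read in Q50 and Q91, the intermediate lines, whose arrays did not enter either mean of the comparison although they share its estimate of the spread. Gm6958 stood at 12.61, 12.12 and 11.57 in Q50 and at 6.37, 6.41 and 6.45 in Q91, and Epas1 at 10.11, 9.68 and 10.95 against 8.05, 7.48 and 8.32. Trub1 gave 8.92, 8.82 and 9.12 in Q50 and 9.88, 9.82 and 9.99 in Q91. In these genes the Q50 arrays were at the level of Q20 and the Q91 arrays at the level of Q111. Of the 54, 46 had the same direction in Q91 minus Q50 as in Q111 minus Q20 (85.2%), beside 59.3% of all tested probe sets. Between Q91 and Q50, 34 of the 54 passed (63.0%), 33 of them in the same direction, beside 2.93% of all tested. All 6 arrays of Q91 and Q111 lay beyond all 6 arrays of Q20 and Q50 in 34 of the 54, and in 168 of all tested (0.934%). The 54 had been chosen for their difference between Q111 and Q20, so this last share is a description. Without Q50 replicate 3, 27 of the 54 passed between Q91 and Q50, and 46 had the same direction. Arrays of Q50 and Q91 also differed over whole chromosomes. The median log2 value minus the control mean on chromosome 8 was 0.12, 0.10 and -0.32 in Q50 and -0.42, -0.45 and -0.43 in Q91. On chromosome 11, Q91 arrays gave 0.47, -0.08 and -0.08, and Q50 arrays -0.01, -0.11 and -0.007. On chromosome 1 they gave 0.16, -0.45 and -0.41, and 0.13, -0.41 and -0.32. The part of these shifts in the counts between Q91 and Q50 was not tested.

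Not every gene followed this split. Bmerb1 and AI662270, both lower in Q111 than in Q20, had Q91 means above their Q50 means, by 0.87 and 0.78, and neither difference passed. Armcx3, a mitochondrial outer membrane protein gene, gave 6.77, 6.71 and 6.68 in Q20 and 7.60, 7.61 and 7.35 in Q111, a rise of 0.80 (limma adjusted p = 0.002). Its Q91 minus Q50 difference was 0.21 (adjusted p = 0.366), with a Q91 mean of 6.78 at the level of Q20. Neurl1a, a ubiquitin ligase gene, had 1 probe set that rose by 1.25 between Q20 and Q111 and differed by -0.07 between Q50 and Q91. Its other, brighter probe set gave 0.64 between Q20 and Q111 and did not pass (adjusted p = 0.802).

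**Figure D3:**
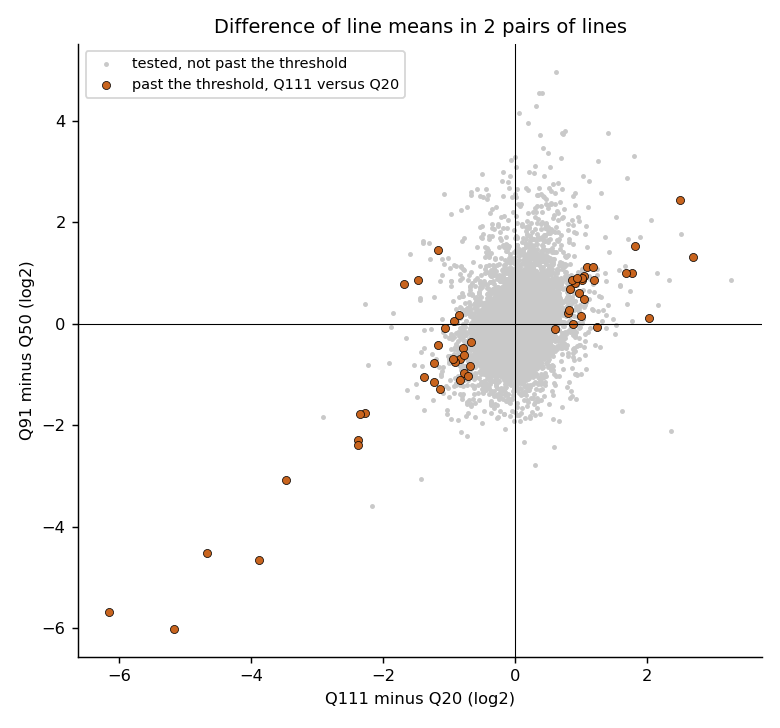
Difference of line means in log2, Q111 minus Q20 (horizontal axis) against Q91 minus Q50 (vertical axis), for 17980 tested probe sets. Orange points are the 54 past the threshold between Q111 and Q20 and grey points all others, and 46 of the 54 lie in the lower left or upper right quadrant.

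Control means lay nearer to Q20 than to Q111 in most of the 54 probe sets. The control mean was nearer to Q20 in 44 of the 54 and nearer to Q111 in 10. Without control replicate 4, the lowest control array in the median of each of 20 chromosomes, it was nearer to Q20 in 45. Both lines differed from control in many probe sets, 25.2% of those tested for Q20 and 25.7% for Q111, comparisons that share the 6 control arrays. Among the 54, 35 differed from control in Q111 and did not pass in Q20, 7 the reverse, and 12 passed in both. Neither this split nor the count of the nearer line is given here for all tested probe sets, so both describe the 54 only. The 7 passing only on the Q20 side included Mapt (Q20 minus control -2.89, Q111 minus control -0.19), Bmerb1 (1.97 and 0.50) and Tubd1 (0.85 and -0.08). Vcpkmt passed on both sides, at -0.51 in Q20 and 0.41 in Q111.

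Cholesterol synthesis runs from acetyl-CoA through mevalonate and squalene to lanosterol and cholesterol. When sterols are scarce, the transcription factor SREBP-2, the product of Srebf2, moves to the nucleus and raises the genes of the pathway, while Insig1 holds it back. Among 35 gene lists with 607 measured genes, chosen with earlier results of these data known, this was the only list with a member past the threshold. That was 1 of the 607 genes, beside 26 of all 9511 genes (0.273%), so the single call does not set the lists apart. Stard4, a carrier of cholesterol within the cell, gave 9.30, 9.38 and 9.62 in Q20 and 10.31, 10.29 and 10.64 in Q111. Every Q111 array was above every Q20 array, and Stard4 rose by 0.98 (1.97-fold, SE 0.17, limma adjusted p = 0.00599, or 0.0556 without Q20 replicate 1). Its dimmer probe sets gave 0.77 and 0.73 and did not pass (adjusted p = 0.185 and 0.744). With the probe sets of each gene averaged, Stard4 differed by 0.83 with a limma adjusted p of 0.0911, so that no gene of the list passed. By the brightest probe set it was 1 of 20 measured genes of the list to pass. Two-sided limma gave an unadjusted p under 0.05 with a higher Q111 value for 15 of the 20, beside 2.68% of all genes. The median difference of the list was 0.52, that of all genes -0.004, and 19 of 20 were above 0. No set test was made, so these counts describe the list only.

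Within the list the values lay close together. Hmgcs1, the synthase that feeds the mevalonate step, gave 12.69, 12.51 and 13.10 in Q20 and 13.35, 13.39 and 13.52 in Q111, with a difference of 0.65 ± 0.20 (limma adjusted p = 0.366). Sc5d, a desaturase near the end of the pathway, gave 8.75, 8.36 and 8.03 against 9.34, 9.10 and 9.21, with a difference of 0.83 ± 0.21 (adjusted p = 0.141). Msmo1, a sterol methyl oxidase, differed by 0.71 (adjusted p = 0.375). None of these 3 passed, although the arrays of the lines did not overlap in Hmgcs1 or Sc5d, as in 12 of the 20 genes, beside 12.4% of all tested probe sets. Srebf2 itself differed by 0.58 and Insig1 by 0.64, neither passing, and Ebp, a sterol isomerase, was the only member below 0, at -0.30. Relative to the Q20 mean of each gene, the list's median was -0.05, -0.12 and 0.18 in the Q20 arrays and 0.51, 0.39 and 0.70 in the Q111 arrays, so the arrays did not overlap. Set beside control, the list's median was 0.24 in Q20 (6 genes higher, 1 lower by limma adjusted p) and 0.74 in Q111 (14 higher, 0 lower), with shared control arrays. Over all genes, 16.3% were higher and 10.4% lower in Q20 than in control, and 16.4% were higher and 11.1% lower in Q111. Between Q91 and Q50 the median was 0.12.

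**Figure D4:**
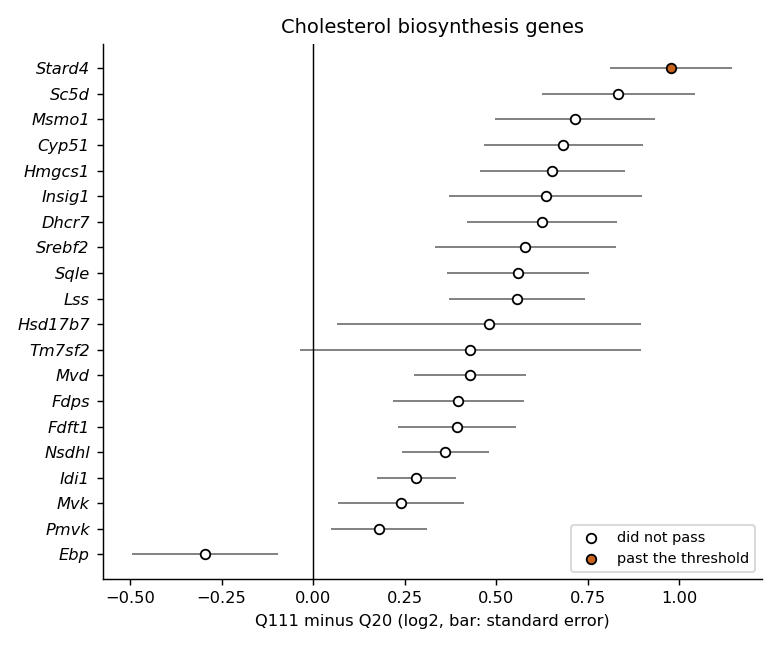
Difference between the line means (horizontal axis, Q111 minus Q20 in log2, with bars of 1 standard error from the limma fit) for the 20 measured genes of cholesterol synthesis (vertical axis). Stard4, the filled point at 0.98, passed the threshold, and of the open points Ebp alone lies below 0, at -0.30.

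SREBP-2 binds sterol regulatory elements next to sites of the trimeric factor NF-Y, so the 250 bases before the start of 3 genes of the list are shown, from RefSeq on GRCm38.p6, each 5′ to 3′ on the strand of its gene. Capitals mark matches, on either strand, to TCACNCCAC, a form of the sterol regulatory element, and to CCAAT, the NF-Y box, which reads ATTGG on the other strand. The windows are chr13:119690101-119690350 on the plus strand for Hmgcs1, chr5:28071162-28071411 on the plus strand for Insig1 and chr9:42264301-42264550 on the minus strand for Sc5d.
Hmgcs1: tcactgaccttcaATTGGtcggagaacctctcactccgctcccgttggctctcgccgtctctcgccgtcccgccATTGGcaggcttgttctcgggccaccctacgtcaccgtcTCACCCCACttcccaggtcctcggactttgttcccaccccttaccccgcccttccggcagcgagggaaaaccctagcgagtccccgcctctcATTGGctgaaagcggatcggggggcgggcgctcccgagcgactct
Insig1: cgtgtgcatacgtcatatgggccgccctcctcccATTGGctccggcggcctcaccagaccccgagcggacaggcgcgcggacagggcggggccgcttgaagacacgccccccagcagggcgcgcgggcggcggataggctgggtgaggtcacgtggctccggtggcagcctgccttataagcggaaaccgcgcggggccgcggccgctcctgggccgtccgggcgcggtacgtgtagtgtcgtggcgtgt
Sc5d: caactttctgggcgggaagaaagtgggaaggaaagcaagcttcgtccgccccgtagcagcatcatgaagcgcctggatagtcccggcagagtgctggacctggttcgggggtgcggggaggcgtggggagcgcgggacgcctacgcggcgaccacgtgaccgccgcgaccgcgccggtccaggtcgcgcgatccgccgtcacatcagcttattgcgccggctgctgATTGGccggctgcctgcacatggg
Hmgcs1 held 1 sterol element match and 3 NF-Y boxes, and Insig1 and Sc5d held 1 NF-Y box each. Of 32851 promoter windows of this length, 346 (1.05%) held TCACNCCAC and 11120 (33.8%) held CCAAT. The promoter table had 19 windows for 16 genes of the list, of which 1 window held the former and 16 the latter, at least 1 for each of the 16 genes. A match of letters is not evidence of binding.

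No gene of the pluripotency lists passed between the lines, where 0.273% of all genes did. At that share, lists of this size would mostly hold no call. None of 21 measured genes of naive pluripotency passed, with a median difference of -0.01 (limma), 10 above 0 and 11 below, and Tbx3 and Dppa2 were at 0.92 (adjusted p = 0.972) and -0.35 (adjusted p = 0.971). Set beside the shared control arrays, the median of this list was -0.88 in Q20 and -0.72 in Q111, with 12 genes lower in each, where 10.4% of all genes were lower in Q20 and 11.1% in Q111. Among 17 measured genes of the primed epiblast none passed, and their median was 0.43. Zic2, a zinc-finger factor of the early epiblast and neural plate, came nearest at 1.70 ± 0.40 (limma adjusted p = 0.0886). The control comparison gave this list a median of 1.77 in Q20 and 2.12 in Q111. Core pluripotency genes had a median of 0.07 over 13 members, none passing.

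Array-to-array spread exceeded the line difference in several lists. Relative to the Q20 mean, the naive list's median was -0.13, -0.22 and 0.30 in the Q20 arrays and -0.21, -0.24 and 0.50 in the Q111 arrays, so replicate 3 was the highest array of both lines. The targets of the growth regulator YAP stood at 0.60, 0.66 and -1.31 in the Q20 arrays and at 0.04, -0.04 and -0.13 in the Q111 arrays, and none of 12 members passed. Epithelial keratin and junction genes stood at 0.48, 0.35 and -0.84 in Q20 and at 0.56, 0.60 and -0.26 in Q111. In both lines replicate 3 was again the array apart, here the lowest.

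Lists tied to reported functions of huntingtin held no call, but with 0.273% of all genes passing, lists of this size would mostly hold none. Of 22 measured genes of huntingtin and the proteins that bind it, a list that counts Htt itself, none passed, with a median of 0.08, and Hip1r, a clathrin and actin adaptor related to huntingtin-interacting protein 1, had the smallest p (0.44 ± 0.20, limma adjusted p = 0.799). Among 14 neuronal genes repressed by REST the median was -0.004, and Syt4, a synaptotagmin, had the smallest p at -0.66 (adjusted p = 0.476). Of 48 subunits of oxidative phosphorylation none passed, the median was 0.03, and no difference was larger than 0.39. The median was 0.22 over 16 glycolysis genes, 0.06 over 27 genes of the unfolded protein and integrated stress responses and -0.05 over 33 proteasome subunits, with no call in any of them. Atf4, the central factor of the integrated stress response, gave -0.76 (adjusted p = 0.321). Of 6 measured neighbours of the huntingtin gene none passed, and Lrpap1, a chaperone of lipoprotein receptors, gave -0.53 (adjusted p = 0.301).

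Imprinted genes, expressed from 1 parental allele, spread to both sides without a call, where 0.273% of all genes passed. Of 32 measured, 5 were higher and 5 lower in Q111 at an unadjusted limma p under 0.05, beside 2.68% of all genes higher and 3.40% lower, and the median was 0.01. Igf2, a fetal growth factor, differed by 2.52 ± 0.75 (adjusted p = 0.326), and Mirg and Dlk1, both of the Dlk1-Dio3 cluster, by -0.83 (adjusted p = 0.246) and -1.07 (adjusted p = 0.421). Of 16 genes of Nodal, activin and Lefty signalling none passed, and Lefty2, a Nodal inhibitor, differed by 0.94 (adjusted p = 0.476). The 38 cell cycle genes had a median of -0.07, with Rrm2, a subunit of ribonucleotide reductase, at -0.37 (adjusted p = 0.404). Across the 35 lists, 31 medians lay within 0.3 of 0.

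Both lines stood above control by a similar amount over chromosome 11, and arrays within a line differed over chromosomes 1 and 8. Each array was summarised by the median, over the genes of a chromosome, of the log2 value minus the control mean. For the 801 genes of chromosome 11 this was 0.47, 0.39 and 0.49 in the Q20 arrays and 0.43, 0.42 and 0.48 in the Q111 arrays, a line difference of -0.01 (exact permutation test p = 0.9). For the 526 genes of chromosome 1 it was -0.42, -0.46 and -0.44 in Q20 and -0.49, -0.48 and 0.21 in Q111. Replicate 3 of Q111 thus stood apart from the other 5 arrays, with 92.0% of its chromosome 1 genes above the mean of the other Q111 arrays. The line difference of 0.19 (exact permutation test p = 1.0) was -0.04 without that array. For the 541 genes of chromosome 8 it was 0.12, 0.03 and -0.40 in Q20 and 0.09, 0.05 and -0.41 in Q111, so replicate 3 was low in both lines, and the line difference was -0.01 (exact permutation test p = 0.9). That difference was -0.16 without Q20 replicate 3 and 0.16 without Q111 replicate 3. On the other 17 chromosomes line differences ran from -0.04 to 0.01.

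**Figure D5:**
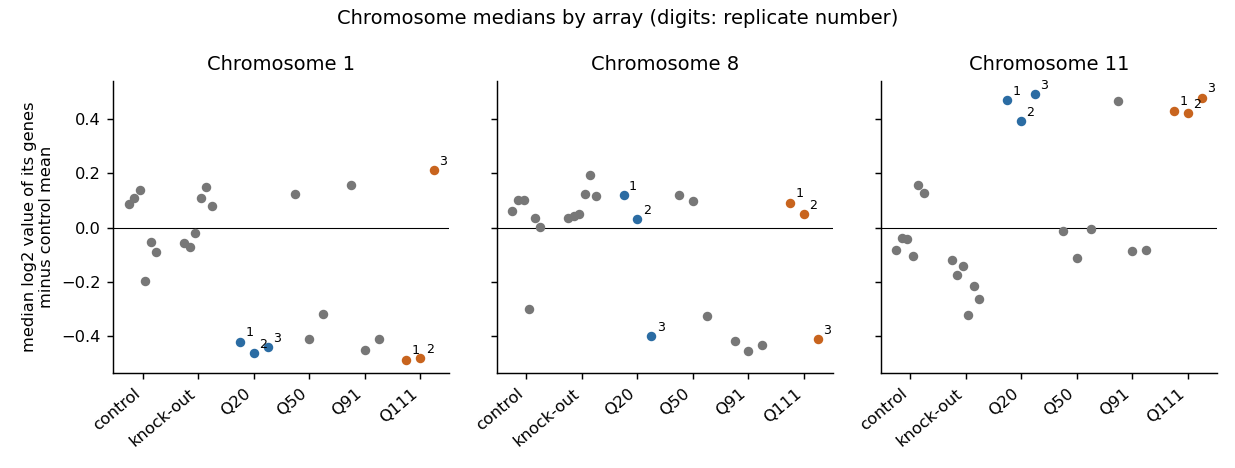
Median over a chromosome's genes of the log2 value minus the control mean (vertical axis), by array and group (horizontal axis), for chromosomes 1, 8 and 11. Q20 arrays are blue and Q111 arrays orange, with their replicate numbers. On chromosome 11 the 6 arrays lie between 0.39 and 0.49, on chromosome 1 replicate 3 of Q111 lies at 0.21 and the other 5 below -0.41, and on chromosome 8 replicate 3 of both lines lies near -0.4.

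The calls between the lines were counted by chromosome. Of 9511 genes tested, 40 had a passing probe set. Of these, 8 were on chromosome 19 (of 317 genes tested), 7 on chromosome 7 (of 710), 5 on chromosome 11 (of 801) and 5 on chromosome 18 (of 241). These counts carry no test. Chromosome 1 held 1 of them, Mfsd6, of 526 genes tested, and chromosome 8 held 0 of 541. Chromosomes 4, 5, 9, 10, 14 and 15 also held 0, of 604, 604, 530, 457, 335 and 380. At a share of 40 in 9511, a chromosome of such size would hold few calls. The low counts on chromosomes 1 and 8 thus do not tell whether the array differences there affected calls. Without the genes of chromosomes 1 and 8, 56 probe sets passed, 53 of them among the 54. Without replicate 3 of both lines 41 passed, 30 of them among the 54, and without Q111 replicate 3 alone 51 passed, 40 of them among the 54. The part of these array differences in single calls was not otherwise tested.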

How the data were processed

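The authors deposited log2 values of 45101 probe sets for each of 24 arrays. Per the submitters' processing notes, the tool was GCRMA. This method adjusts background by probe sequence, scales arrays against each other, which is meant to reduce shifts of whole arrays, and summarises probes. No version is given in the sources used here, nor whether all 24 arrays were processed together. After 64 AFFX control probe sets were left out, 17980 of 45037 with log2 of 5 or more on at least 3 of 24 arrays were tested. The limma fit (limma 3.58.1 in R 4.3.3) of all 24 arrays had 6 group means, 18 residual degrees of freedom and a two-sided contrast of Q111 minus Q20. Benjamini-Hochberg adjustment ran over all 17980, with a threshold of 0.05. Arrays, not reads, limit precision, and 3 arrays a line are few. Tested on simulated data for this contrast, the fit recovered 14%, 64%, 94% and 98% of 50 changed probe sets at differences of 0.5, 1, 2 and 3 log2 units, among 17980. The simulated noise was independent between arrays and probe sets. It lacked the chromosome shifts and the shared deviations of same-numbered arrays found in the real data, so recovery there may differ.

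Groups followed titles and genotype labels. Genes were named from the platform annotation only where a probe set had 1 gene, with symbols updated through a RefSeq table (GRCm38.p6). Of several probe sets, the brightest on average over 24 arrays represented a gene (9511 genes). Members and lists were chosen with earlier results of these data known. Genes were named by rule: past the threshold without overlap, the 10 largest rises and falls by representative probe set, the 8 largest of each with both means at 5 or more, the next gene wherever a RIKEN, Gm or expressed-sequence symbol was taken, up to 4 members of smallest p from each list described, and Htt. Same-numbered arrays of the lines deviated together (correlations 0.39, 0.464 and 0.392, against -0.34 to 0.003 for other numbers), so the replicate numbers were taken to pair arrays. This pairing comes from the data and shared numbers in the labels, not from a stated batch. It was examined between Q20 and Q111 only, while the block in the fit of 24 arrays applied the numbers to all 6 groups. Alternatives varied the filter, scaling, arrays in the fit, replicate block, prior, array weights and each replicate. Exact permutation tests were used for the Htt probe sets and the chromosome medians only, and other p-values came from limma.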

Additional observations from a re-analysis of the deposited data

Results flagged for a closer look

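Among 29 groups of 4 to 10 arrays examined, 4 had an array far from the rest, where chance would flag about 1 in 20 groups. All 4 concern the 6 control arrays, which entered no line mean of the comparison. The gap of the lowest array to the next, as a share of the group's range, was 0.702 for the brightest Htt probe set (7.45 against 8.01), 0.746 for the chromosome 8 median (-0.30 against 0.00073), 0.739 for Gm6958 (11.23 against 12.24) and 0.824 for Vcpkmt (7.81 against 8.30). In all 4 the lowest array was control replicate 4, which was also the lowest control array in the median of each of the 20 chromosomes. Without it 54 probe sets passed between Q111 and Q20, 51 of them among the 54 of the full fit, an alternative chosen after seeing the data. A cause of its low values was not tested.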

How the results depend on the processing

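Of 54 calls in the full fit, the 6 arrays alone gave 8, the 12 knock-in arrays 8 and array weights 256. The replicate block gave 41 with 24 arrays (38 shared) and 4 with 6 arrays. With 24 arrays it changed no call of a named probe set apart from the losses given above. With 6 arrays the named probe sets lost their calls, except those of Gm6958, Prune2 and Mapt. Among the lost were the brighter of Epas1 (limma adjusted p = 0.191), Pop4 (0.274), Dctn5 (0.242), Trub1 (0.199) and Snapc1 (0.179). Leaving out 1 array gave 30 to 51. The count of list members past the threshold, 1 in the full fit, was 2 with quantile normalization, 2 with median centring, 0 with the 6 arrays, 0 with the 12 knock-in arrays, 0 with the replicate block in 6 arrays, 21 with array weights and 0 to 2 with 1 array left out. With the probe sets of a gene averaged it stayed 1, but the member was Atf4 (limma adjusted p = 0.0461) and no longer Stard4 (0.0911). Other filters, scalings and priors gave 46 to 65 calls, and leaving out Q50 replicate 3 gave 72. That setting, the one without genes of chromosomes 1 and 8 and the one without replicate 3 of both lines were chosen after seeing the data. Of 894 comparisons over 43 named probe sets, 619 kept direction and side of the threshold, 275 fell short and 0 reversed. The brightest Htt probe set passed in none, and the chromosome medians moved by less than the spread between replicates. The cause of the differing counts was not tested. With 3 arrays a line, the fit recovered 14% of simulated differences of 0.5 under independent noise.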
